A study of Mus musculus with 6 samples.

Results

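The hairpins mir-22, mir-140 and mir-151 each give rise to a pair of mature miRNAs, one from the 5p arm and one from the 3p arm, and in these libraries the 3p arm held most of the reads. They were followed here through the 6 mature miRNAs mmu-miR-22-5p, mmu-miR-22-3p, mmu-miR-140-5p, mmu-miR-140-3p, mmu-miR-151-5p and mmu-miR-151-3p (the species prefix is left out below), which are 6 of the 1976 mouse miRNAs in the deposited table. The members were chosen by their arm ratio in these same data, so that the level of the ratio is a description and carries no test. Small RNA came from extracellular vesicles, which the labels call exosomes, collected from primary hepatocytes of wild type (C57BL/6J) mice. In the PA group (3 libraries) the hepatocytes had received 600 µM palmitic acid, a saturated fatty acid used to load liver cells with lipid, and in the Control group (3 libraries) they had received 0 µM. The labels name no other agent, exposure time or age of the mice. As they do not tie replicates to different mice or cultures, p-values measure library-to-library spread only, and that may be technical.

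A miRNA hairpin is cut by Drosha and Dicer into a short duplex of its arms. As a rule one strand, the guide, is loaded into an Argonaute protein and kept, while the other, the passenger, is discarded, and the ratio of the arms can differ between tissues. The guide finds its target transcripts through the seed, bases 2 to 8 from its 5′ end. miR-22 is broadly expressed and has been studied in heart, muscle and liver lipid metabolism. miR-140 is best known from cartilage, where its loss impairs skeletal growth in mice. miR-151 is encoded within the gene of focal adhesion kinase and has been linked to cell migration in human liver cancer.

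Of the 3 member hairpins, mir-22 carries the 3p arm with the highest mean level in PA vesicles. It is shown in full to place its arms, from RefSeq (GRCm38.p6, chr11:75463716-75463810, plus strand), with the 5p and the 3p arm in capitals.
Mir22 hairpin: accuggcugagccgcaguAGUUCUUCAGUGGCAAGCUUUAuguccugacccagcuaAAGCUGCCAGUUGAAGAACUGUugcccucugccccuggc
The mature RefSeq sequences that matched 3 of the 6 members follow, with the seed in capitals.
miR-22-5p: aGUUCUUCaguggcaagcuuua
miR-22-3p: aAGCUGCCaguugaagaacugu
miR-140-3p: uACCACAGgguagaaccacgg
The arms of mir-22 are 22 bases long and separated by 16 bases of loop. No other mature mouse miRNA in the RefSeq table shared the seed of miR-22-5p or miR-22-3p, and miR-497b shared that of miR-140-3p. miR-22-3p starts with A and miR-140-3p with U. Among the 24 hairpins measured in both arms, 21 more abundant arms had a sequence, of which 8 started with U, 8 with A, 4 with C and 1 with G.

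In the GENCODE annotation of GRCm38, Mir22 lies in exons of its non-coding host gene Mir22hg, in 2 of the 2 spanning transcripts, and in an exon of 1 transcript of Tlcd2. Mir140 (chr8:107551244-107551313, plus strand) lies within Wwp2, a ubiquitin ligase gene, in an intron of all but 1 of the 4 spanning transcripts. Mir151 (chr15:73254815-73254882, minus strand) lies in an intron of Ptk2, the gene of focal adhesion kinase, in all 5 spanning transcripts.

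The deposited values are log2(adjusted count + 1), and the reads behind them were recovered from the values. Libraries held 613467 to 799102 reads in the PA group and 95244 to 657638 in Control. Without miR-122 and miR-122b, the hepatocyte miRNA and its antisense partner, 534289 to 676785 reads were left in PA libraries and 29341 to 80744 in Control libraries. The hepatocyte markers, with miR-122-5p (6 of 6 with reads in PA and 5 of 6 in Control), held 308013 to 464416 counts per 1000000 reads (RPM) in PA libraries. In Control libraries they held 637468 to 825380 RPM, so they were a large part of the reads in all 6. Of this list, miR-802-5p had 11, 4 and 0 reads in the PA libraries and 0 in each Control library. The lower sum in PA went with miR-122-5p, which fell (109081 RPM in PA and 653411 RPM in Control on average, log2 difference -3.56, limma adjusted p = 0.0141). Of the other tested hepatocyte markers, miR-192-5p (1.94, adjusted p = 0.0259) and miR-101b-3p (5.44, adjusted p = 9.8e-05), named after their values were seen, rose. miR-148a-3p had 207249 RPM in PA, above miR-122-5p there, and 58075 RPM in Control, with a log2 difference of 0.83 that did not pass. Of reads other than miR-122, markers of stellate cells and fibroblasts (4 of 4 with reads in PA and 2 of 4 in Control) held 525 to 708 RPM in PA and 1276 to 6987 RPM in Control, and endothelial markers (2 of 2 in each group) held 4419 to 5616 RPM in PA and 7047 to 16408 RPM in Control. Striated muscle markers (1 of 3 in PA and 2 of 3 in Control) held 29.7 to 59.1 RPM in PA and 780 to 7668 RPM in Control, with miR-133a-3p at 0 throughout. Erythroid markers (2 of 3 in each group) held 28.1 to 181 RPM in PA and 310 to 18507 RPM in Control, with miR-144-3p at 0. Of the tested markers miR-206-3p of muscle (-5.06, adjusted p = 0.00105) and miR-486a-5p of erythroid cells (-4.20, adjusted p = 0.00557, named after its values were seen) fell, and no endothelial, stellate or immune marker passed, and no epithelial marker was tested. Immune markers (5 of 5 with reads in PA and 4 of 5 in Control; 59.9 to 235 in PA and 12.4 to 818 RPM in Control) and epithelial markers (4 of 5 in each; 13.1 to 39.9 in PA and 12.4 to 989 RPM in Control) overlapped between the groups. Depth and several of these lists differed between the groups along with the members, and their part in the results was not tested. In bulk vesicle RNA, fewer vesicles of one origin and less of a miRNA per vesicle cannot be told apart.

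The 3p arm outnumbered the 5p arm in each of the 6 libraries for all 3 hairpins. The log2 ratio of 5p to 3p adjusted counts, with 0.5 added to each, averaged -5.58 for mir-151, -5.46 for mir-22 and -4.13 for mir-140. Of 24 hairpins with a mean adjusted count of at least 10 in each arm, 12 had a mean ratio below 0 and 12 above. In the order of mean ratios mir-151 and mir-22 stood next to each other between miR-122b (-10.16) and miR-221 (-5.11), and mir-140 stood between miR-221 and miR-199a (-3.18). The hairpins nearest to an equal ratio were miR-3068 at -0.12 and miR-30e at 0.61. miR-122b overlaps miR-122 on the opposite strand, so its reads are not separate from those of miR-122 with certainty.

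**Figure D1:**
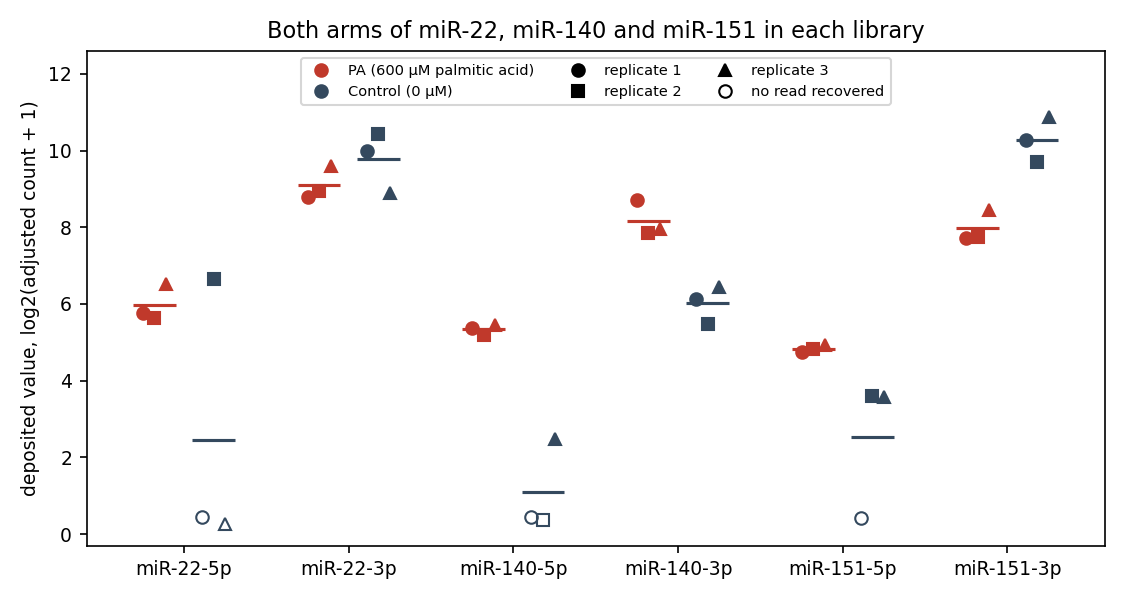
Deposited values, log2(adjusted count + 1), of the 6 arms in the 3 PA libraries (red, left) and the 3 Control libraries (dark blue, right), with a bar at each group mean and open symbols where no read was recovered. miR-151-3p sits lower in the PA libraries and both miR-140 arms sit higher, while miR-22-5p is at the level of the PA libraries in Control replicate 2 alone.

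miR-151-3p fell and miR-140-3p rose in PA vesicles, whereas miR-22-3p did not pass the test. miR-151-3p had deposited log2 values of 7.73, 7.74 and 8.45 in the PA libraries and 10.27, 9.71 and 10.87 in the Control libraries. All PA libraries were below all Control libraries, on 433, 610 and 587 PA reads against 398, 308 and 865 Control reads. The log2 difference, PA minus Control, was -2.31 (SE 0.44; 95% interval -3.32 to -1.30, limma with Benjamini-Hochberg adjusted p = 0.00248 over the 181 tested miRNAs). It passed under all alternatives tried but 1, with library totals as the scale (-1.34, adjusted p = 0.211; 3.2e-04 to 0.211 over its 16 alternatives).

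miR-140-3p had log2 values of 8.71, 7.84 and 7.96 in PA and 6.12, 5.49 and 6.45 in Control, with no overlap. These rested on 855, 653 and 418 reads in PA and on 22, 16 and 40 reads in Control. It rose by 2.15 (SE 0.54, 95% interval 0.91 to 3.38, limma adjusted p = 0.00908), higher in 3 of 3 PA libraries. The call was lost without PA replicate 1 (1.88, adjusted p = 0.0624), when each library was centred on its median tested miRNA (1.36, adjusted p = 0.0924), relative to reads other than miR-122 (1.03, adjusted p = 0.228) and relative to the median difference of all tested miRNAs (0.21, adjusted p = 0.760). The adjusted p ran from 0.00811 to 0.760 over its 16 alternatives.

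miR-22-3p, the most abundant member in PA vesicles, had log2 values of 8.79, 8.94 and 9.59 in PA and 9.99, 10.42 and 8.89 in Control. Control replicate 3 lay within the range of the PA libraries. The reads were 904, 1401 and 1295 in PA and 327, 505 and 220 in Control. The difference was -0.66 (SE 0.48, 95% interval -1.78 to 0.45, limma adjusted p = 0.259; 0.00250 to 0.727 over its 16 alternatives), and its sign turned to 0.31 with library totals as the scale. It passed as lower in PA with upper-quartile scaling (-1.21, adjusted p = 0.0444), centring (-1.45, adjusted p = 0.0180), relative to reads other than miR-122 (-1.81, adjusted p = 0.0133) and relative to the median difference (-2.60, adjusted p = 0.00250).

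The 5p arms of the 3 hairpins had 841 reads in the 3 PA libraries together and 48 in the 3 Control libraries. These sums are not scaled for depth, which was 534289 to 676785 reads other than miR-122 in PA and 29341 to 80744 in Control. Of the 48 Control reads, 37 were miR-22-5p in Control replicate 2. miR-140-5p, the arm with known cartilage targets, had 83, 102 and 72 reads in the PA libraries and 0, 0 and 2 in Control replicates 1, 2 and 3. Its log2 values of 5.38, 5.20 and 5.45 in PA stood above 0.44, 0.37 and 2.48 in Control, and the fitted difference was 4.25 (SE 0.65, limma adjusted p = 9.0e-04; 9.8e-05 to 0.0185 over its 15 alternatives). miR-140-5p reached the filter of an adjusted count of at least 10 in 3 libraries through the PA group alone, so its direction was fixed by the filter, and the values where no read was found are set by the adjustment. From the pooled reads its ratio of PA to Control was 59.4 relative to all reads (95% interval 16.3 to 493) and 11.1 relative to reads other than miR-122 (3.04 to 92.1). With a pseudocount of 5 the fitted difference was 2.78 (adjusted p = 2.7e-04). The counting intervals of pooled ratios, and those of read shares below, cover counting error only, since PCR copies are not independent molecules.

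miR-151-5p had 53, 78 and 50 reads in PA and 0, 4 and 5 in Control. Its log2 values were 4.75, 4.82 and 4.94 in PA and 0.43, 3.60 and 3.58 in Control, without overlap. The difference of 2.30 did not pass (SE 0.93, 95% interval 0.14 to 4.45, limma adjusted p = 0.0664). It passed without Control replicate 2 (2.83, adjusted p = 0.0405), without Control replicate 3 (2.82, adjusted p = 0.0344), with a pseudocount of 5 (1.55, adjusted p = 0.0273) and with library totals (3.98, adjusted p = 0.0156), with 0.0156 to 0.760 over its 15 alternatives. Its pooled read ratio of PA to Control was 9.30 relative to all reads (95% interval 4.79 to 20.7) and 1.74 relative to reads other than miR-122 (0.895 to 3.86).

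miR-22-5p had 110, 140 and 153 reads in PA and 0, 37 and 0 in Control, so that Control replicate 2 alone held reads. Its log2 values were 5.77, 5.64 and 6.52 in PA and 0.45, 6.66 and 0.27 in Control, and Control replicate 2 lay above all PA libraries. The difference was 3.52 (SE 1.65, 95% interval -0.30 to 7.34, limma adjusted p = 0.0994, with 3.4e-04 to 0.447 over its 16 alternatives). Without Control replicate 2 it was 5.62 (SE 0.53, adjusted p = 3.4e-04). That fit set PA against Control replicates 1 and 3, which held no read and whose values are set by the adjustment. Its direction was thus fixed by leaving out Control replicate 2, and its p-value is no support for a rise. The difference also passed with library totals as the scale (5.59, adjusted p = 0.0143), and with a pseudocount of 5 it was 2.23 (adjusted p = 0.119). Its pooled read ratio of PA to Control was 5.04 relative to all reads (95% interval 3.59 to 7.26). Relative to reads other than miR-122 it was 0.941 (0.671 to 1.36), an interval that spans 1 and gives no direction.

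Besides miR-140-5p, whose direction the filter fixed, 1 arm rose (miR-140-3p), 1 fell (miR-151-3p) and 3 passed in neither direction. The background was 42.0% higher (76 miRNAs) and 14.4% lower (26 miRNAs) in PA vesicles among the 181 tested, with a median difference of 1.94. Of these, 33 higher and 3 lower miRNAs reached the filter through 1 group alone, as miR-140-5p did, and among the 145 that reached it through libraries of both groups 43 were higher and 23 lower. When differences were taken relative to this median, the counts were 48 higher and 59 lower. Groups did not overlap for 4 of the 6 arms, against 68.0% of all tested miRNAs. Relative to the median difference, miR-151-3p stood at -4.25, miR-22-3p at -2.60, miR-140-3p at 0.21, miR-151-5p at 0.36, miR-22-5p at 1.58 and miR-140-5p at 2.31.

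The direction of miR-22-3p changed with the scale, and the fitted direction of the other arms was the same on all 6 scales tried. For the 5p arms that direction rests in part on Control libraries without a read, and the filter fixed it for miR-140-5p. Relative to reads other than miR-122, the pooled read ratio of miR-22-5p was 0.941, below 1. Its interval and that of miR-151-5p spanned 1. In RPM of all reads miR-22-3p averaged 1694 ± 506 in PA and 1691 ± 1510 in Control (SD, n = 3 each). Of reads other than miR-122 it had 1336, 2084 and 2424 RPM in PA and 11145, 6254 and 4183 RPM in Control, with no overlap. miR-151-3p had 640, 907 and 1099 RPM of these reads in PA and 13565, 3815 and 16446 RPM in Control, again with no overlap, although in RPM of all reads Control replicate 2 (468) lay below the PA libraries (542 to 957). Together the 6 arms held 0.360%, 0.444% and 0.482% of reads other than miR-122 in PA and 2.55%, 1.08% and 2.15% in Control. Of all reads they held 0.305%, 0.392% and 0.420% in PA and 0.784%, 0.132% and 0.449% in Control, where the groups overlapped.

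**Figure D2:**
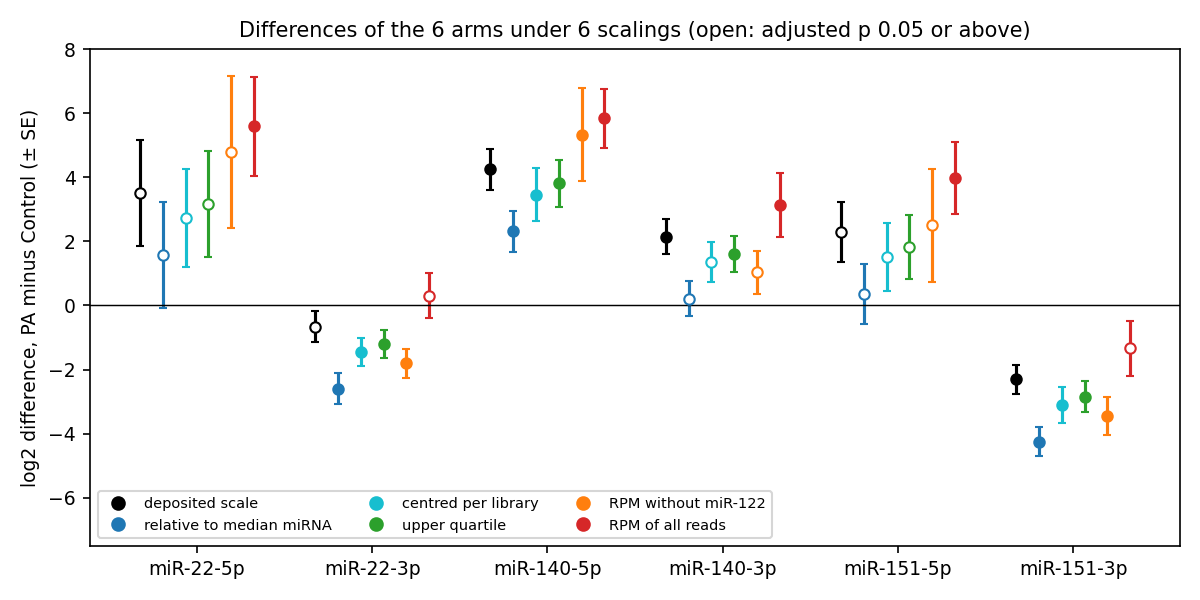
Log2 difference, PA minus Control, of each arm with its SE on the deposited scale and under 5 other scalings, filled where the limma adjusted p was below 0.05. miR-151-3p is below 0 and the 5p arms and miR-140-3p are above 0 on every scale drawn, while miR-22-3p runs from -2.60 to 0.31. Control libraries without a read enter the differences of the 5p arms.

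By mean level among the members, miR-22-3p led in PA vesicles at 1694 ± 506 RPM of all reads. Next were miR-140-3p at 870 ± 195 and miR-151-3p at 766 ± 210 RPM, which did not differ beyond their spread. miR-22-5p (190 ± 56.2 RPM), miR-140-5p (118 ± 15 RPM) and miR-151-5p (83.4 ± 18.1 RPM) followed. In Control vesicles miR-151-3p led at 2692 ± 1962 RPM and overlapped miR-22-3p at 1691 ± 1510 RPM, and miR-140-3p stood at 138 ± 105 RPM (SD, n = 3 throughout). The 5p arms were at 18.8 ± 32.5 RPM for miR-22-5p, 8.63 ± 10.2 RPM for miR-151-5p and 2.64 ± 4.58 RPM for miR-140-5p in Control, with spreads as large as the levels. PA replicate 3 and Control replicate 2 had the same order of the 3p arms, and a difference in order between the groups was not tested. RPM is not scaled for length, and the mature sequences found for the members are 21 to 22 bases long.

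The 5p share of each hairpin compares its arms within a library, so that the scale of the library drops out. For mir-151 the 5p arm held 53 of 486 reads (10.9%, 95% Clopper-Pearson interval 8.28 to 14.0), 78 of 688 (11.3%, 9.07 to 13.9) and 50 of 637 (7.85%, 5.88 to 10.2) in PA libraries. In Control libraries it held 0 of 398 (interval 0 to 0.923), 4 of 312 (1.28%, 0.350 to 3.25) and 5 of 870 (0.575%, 0.187 to 1.34). All PA shares lay above all Control shares and their counting intervals did not meet. The hairpins were chosen by the ratio of these same arms. This separation, and the shares of mir-22 and mir-140 below, are therefore a description and support no statement on the hairpins.

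For mir-22 the 5p share was 10.8% (9.0 to 12.9), 9.09% (7.70 to 10.6) and 10.6% (9.03 to 12.3) in PA. In Control it was 0 of 327 reads (interval 0 to 1.12), 37 of 542 reads (6.83%, 4.85 to 9.29) and 0 of 220 reads (0 to 1.66). The intervals of Control replicate 2 and of the PA libraries overlapped, and those of Control replicates 1 and 3 did not reach them.

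For mir-140 the 5p share was 8.85% (7.11 to 10.9), 13.5% (11.2 to 16.2) and 14.7% (11.7 to 18.1) in PA. Control libraries held 0 of 22, 0 of 16 and 2 of 42 reads, and the intervals of replicates 1 and 2 reached up to 15.4% and 20.6%. The third Control share was 4.76% (0.582 to 16.2), so a difference between the groups was not detectable at this depth in single libraries.

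Expressed as the 3p share, mir-22 averaged 89.8% ± 0.947 in PA and 97.7% ± 3.94 in Control, mir-140 87.6% ± 3.09 in PA and 98.4% ± 2.75 in Control, and mir-151 90.0% ± 1.90 in PA and 99.4% ± 0.642 in Control (SD, n = 3). Each of the 3 differences, of -7.89, -10.8 and -9.41 percentage points, gave p = 0.10 in an exact two-sided permutation test, the smallest p that 3 libraries against 3 allow. The shares use the same arms as the ratio by which the hairpins were chosen. These differences are therefore not independent of the choice, and the test supports no statement on the 3 hairpins.

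**Figure D3:**
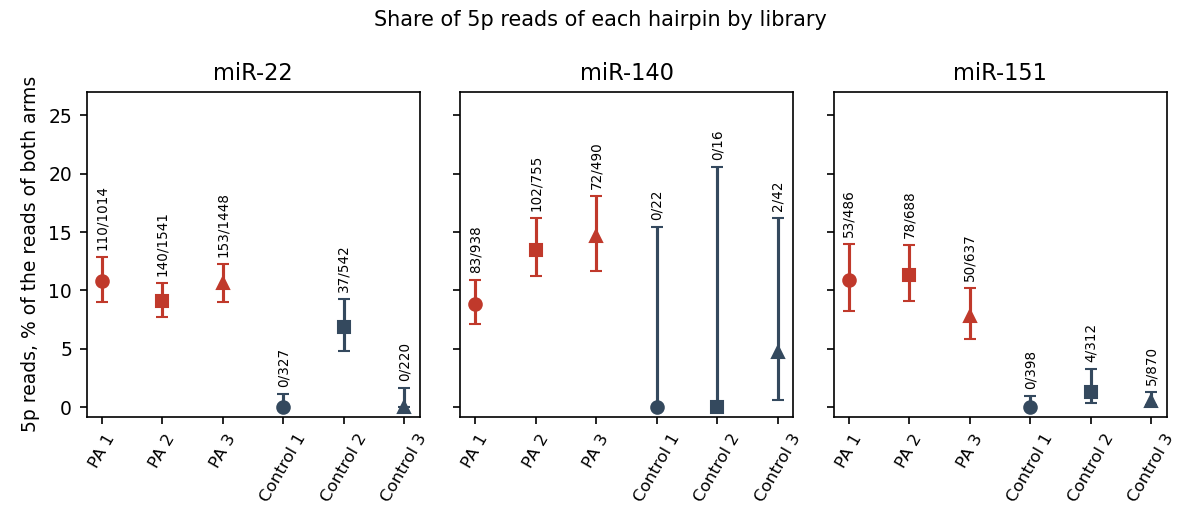
Share of 5p reads among the reads of both arms for mir-22, mir-140 and mir-151 in each library, PA (red) left of Control (dark blue), with 95% Clopper-Pearson intervals and the reads behind each share. PA shares run from 7.85% to 14.7%, and Control shares from 0% to 6.83% with wide intervals for mir-140.

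The PA minus Control differences of the 5p to 3p ratio are given with their fit across 24 hairpins, but low Control ratios also lowered the means by which the hairpins were chosen, so they are not independent of the choice and support no statement on the 3 hairpins. The 5p arms of mir-151 and mir-140 reached the minimum mean of 10 through PA alone, with mean adjusted counts of 27.6 and 39.7 in PA and 7.5 and 1.74 in Control. In 8 of the 24 hairpins an arm was below that minimum in Control. The log2 ratio of mir-151 was -3.0, -2.94 and -3.53 in PA and -10.52, -6.16 and -7.34 in Control. The difference was 4.85 (SE 1.22, 95% interval 2.23 to 7.47, limma adjusted p = 0.00862). The call was lost without PA replicate 1 (4.77, adjusted p = 0.0517), without PA replicate 2 (4.74, adjusted p = 0.0659) and with no minimum per arm (adjusted p = 0.0753), with 4.7e-04 to 0.0753 over its 14 alternatives.

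The log2 ratio of mir-22 was -3.03, -3.31 and -3.07 in PA and -10.19, -3.77 and -9.40 in Control, and the Control values of replicates 1 and 3 rest on no 5p read. The difference was 4.65 (SE 1.48, 95% interval 1.46 to 7.83, limma adjusted p = 0.0255). This call was lost without PA replicate 1 (adjusted p = 0.0959), 2 (0.0920) or 3 (0.0649), without Control replicate 1 (3.44, adjusted p = 0.124) or 3 (3.84, adjusted p = 0.115) and with no minimum per arm (adjusted p = 0.195; 9.5e-04 to 0.195 over its 14 alternatives). Where a Control library held no 5p read, the size of the ratio depends on the value given to 0 reads, and with 5 in place of 0.5 added the differences were 2.89 for mir-22, 3.84 for mir-151 and 0.70 (adjusted p = 0.475) for mir-140.

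For mir-140 the log2 ratio was -3.35, -2.66 and -2.52 in PA and -6.34, -5.81 and -4.10 in Control. The difference was 2.57 (SE 1.15, 95% interval 0.11 to 5.04, limma adjusted p = 0.0919), with Control replicates 1 and 2 resting on no 5p read, and without Control replicate 3 it was 3.23 (adjusted p = 0.0271; 0.0271 to 0.475 over its 14 alternatives).

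Ratios passed upward in 2 of the 3 hairpins, where 25.0% of the 24 hairpins passed upward and 12.5% downward, with a median difference of 2.22. Without PA replicate 2, 0 hairpins passed in either direction, while 5 higher and 3 lower had an unadjusted p below 0.05. Groups did not overlap in 3 of the 3 hairpins, against 58.3% of the 24. The 3 hairpins were chosen by this ratio, so these counts are not independent of the choice and show no excess over the 24. Among the 12 hairpins with a mean log2 ratio below 0, these 3 included, the 5p share of pooled reads was larger in PA in 10, and the exceptions were miR-28a (19.0% in PA and 32.0% in Control) and miR-193a (6.36% in PA and 91.2% in Control, on 34 Control reads). Control held fewer reads than PA for 10 of these 12. Among the 12 hairpins with a mean log2 ratio above 0, the share of the 3p arm was larger in PA in 7. No test set mir-22, mir-140 and mir-151 apart from the others.

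**Figure D4:**
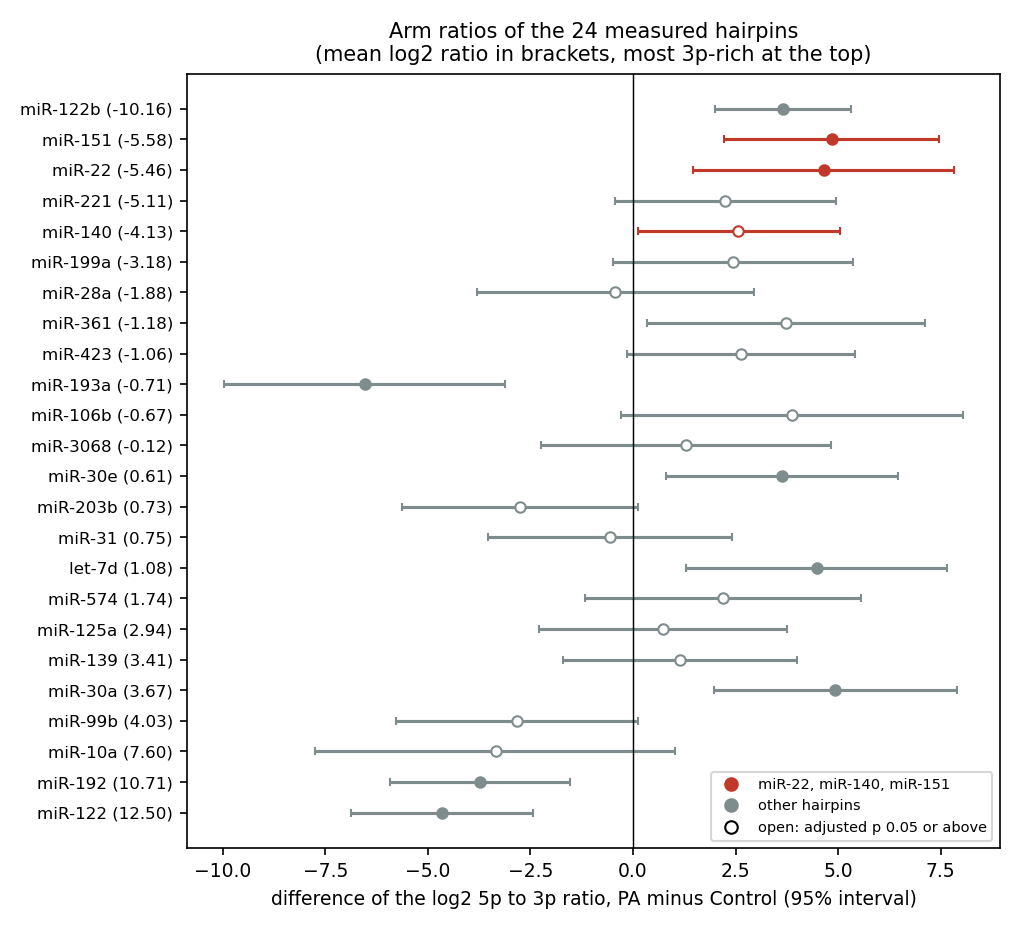
Difference of the log2 5p to 3p ratio, PA minus Control, with 95% intervals for the 24 hairpins measured in both arms, ordered by mean ratio (in brackets) and filled where the limma adjusted p was below 0.05. mir-151 (4.85) and mir-22 (4.65) are filled and mir-140 (2.57) is open, among hairpins that run from -6.54 to 4.93. mir-151, mir-22 and mir-140 were chosen by this ratio, so their differences support no statement on them.

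mir-151 belongs with mir-28 and mir-708 to a family of related hairpins. The seed shared by miR-28a-5p and miR-708-5p is shown in capitals, from RefSeq (GRCm38.p6), to show the resemblance of their 5p arms, which are 22 and 23 bases long (chr16:24827868-24827889 and chr7:96249450-96249472, plus strands).
miR-28a-5p: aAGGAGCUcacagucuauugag
miR-708-5p: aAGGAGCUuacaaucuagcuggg
Of 8 listed members of the family 4 were tested, and 1 fell (miR-151-3p), 0 rose and 3 passed in neither direction in the limma fit, with 1 higher at an unadjusted p below 0.05, beside 42.0% higher and 14.4% lower among all tested miRNAs. The median difference of the 4 was 1.96, beside 1.94 over all tested miRNAs. miR-28a-3p had 268, 285 and 159 reads in PA and 0, 30 and 53 in Control, with a difference of 2.20 (SE 1.61, adjusted p = 0.259). miR-28a-5p had 41, 46 and 80 reads in PA and 0, 38 and 1 in Control (1.72, SE 1.51, adjusted p = 0.340), so that, as for miR-22-5p, Control replicate 2 held nearly all Control reads. Without Control replicate 2, 2 members of the family were higher and 1 lower, beside 85 higher and 32 lower of all 181 tested miRNAs. The arms of miR-708 had 12 and 11 reads in PA and 5 and 15 in Control for 5p and 3p, and miR-28b and miR-28c had 1 and 10 reads in PA and 0 and 2 in Control.

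A list of 54 miRNAs named by their 3p arm, most of them usual guides and the 3 member 3p arms among them, had 37 tested members. Of these 16 rose, 4 fell and 17 did neither, beside 42.0% higher and 14.4% lower among all 181 tested, so the list stood near the background. Their median difference was 1.53, beside 1.94 for all tested miRNAs. Relative to the median difference of all tested miRNAs 10 were higher and 12 lower (48 and 59 of all 181). Relative to reads other than miR-122, 10 were higher and 9 lower (57 and 41 of all 181). Of its 4 most abundant members by mean RPM of all reads over the 6 libraries, miR-101a-3p (13837 RPM in PA and 468 RPM in Control) rose by 4.65 (SE 0.53, limma adjusted p = 1.6e-04) and miR-29a-3p, known for repressing collagen mRNAs (6903 RPM in PA and 910 RPM in Control), by 3.68 (SE 0.82, adjusted p = 0.00542). miR-148a-3p (0.83, adjusted p = 0.453) and the endothelial miR-126a-3p (0.07, adjusted p = 0.879) did not pass.

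The 3p arms differed in the miRNAs that ran most like them over the 6 libraries. By Pearson's r of the deposited log2 values, a description over 6 libraries that share depth and group, miR-151-3p was most like miR-125b-5p (r = 0.984), miR-6239 (0.980) and miR-423-3p (0.972), which all fell (log2 differences of -3.04, -4.16 and -6.01). miR-140-3p was most like miR-21b (0.985), miR-3074-5p (0.969) and miR-21c (0.965), of which miR-21b (3.60) and miR-21c (3.92) rose and miR-3074-5p (1.99) did not pass. miR-21b and miR-21c resemble miR-21a, so their single values are uncertain. miR-22-3p was most like miR-25-3p (0.948), miR-194-5p (0.872), a hepatocyte miRNA, and miR-361-3p (0.853), none of which passed (-1.14, -0.23 and -1.01).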

How the data were processed

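Small RNA libraries from vesicles of mouse hepatocytes (3 PA, 3 Control) were, per the labels' protocols, prepared with a NEBNext small RNA kit after Trizol extraction. GRCm38 and mm10 as builds, and Bowtie2 and bedtools as tools, are named without versions or roles in the submitters' processing notes. How reads were counted is not given in the sources used here. As a whole-series file, the authors deposited 1 table of log2 values, named as raw counts. The values behave as log2(adjusted count + 1), where counts were brought to 1 library size by negative binomial quantiles, a step that no label states. The adjustment was inverted (fitted dispersion 1.39, library factors 1.69 to 2.86 in PA and 0.322 to 0.464 in Control), and all 1936 values testable, where neighbouring read numbers lie at least 0.02 apart, came out whole within 0.0015 on the log2 scale. The library factors, the dispersion and the mean of each row were fitted to the deposited values, so this closeness is partly built in. Larger read numbers are estimates. In 108 rows no read was found in any of the 6 libraries although values above 0 stand there, so the adjustment may have drawn on libraries not analysed here. The inversion and the fits were tested on simulated data.

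A count test was not used on these log2 values. The model had a group term and a trend of variance on mean (limma 3.58.1 in R 4.3.3). It was fitted to the 181 miRNAs that reached an adjusted count of 10 in 3 or more libraries, and to the log2 5p to 3p ratio (0.5 added) of 24 hairpins with a mean adjusted count of at least 10 per arm. P-values are two-sided and Benjamini-Hochberg adjusted over each whole table, with a threshold of 0.05. RPM and arm shares used recovered reads. Other filters, scalings, pseudocounts, a fit without the trend, a replicate block and leaving out each library were tried. The members and lists were chosen with earlier results of these data known. Named miRNAs were the members, the 3 miRNAs most like each 3p arm, hairpins next in ratio, tested mir-28 relatives and the 4 most abundant of the 3p list. That list also holds miR-32-3p, miR-150-3p, miR-192-3p and miR-532-3p, whose 5p arm is the usual guide. Replicates of a group differed beyond sampling noise (chi-square per degree of freedom 79.0 to 478).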

Additional observations from a re-analysis of the deposited data

How the results depend on the processing

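Library totals gave 5.59 for miR-22-5p, 0.31 for miR-22-3p, 3.98 for miR-151-5p and -1.34 for miR-151-3p. Reads other than miR-122, a scale chosen after seeing the data, gave -1.81 for miR-22-3p and 1.03 for miR-140-3p; centring gave -1.45 and 1.36, the median difference -2.60 and 0.21, and upper-quartile scaling -1.21 for miR-22-3p. A pseudocount of 5 gave 1.55 for miR-151-5p, 2.23 for miR-22-5p and 2.78 for miR-140-5p, and ratio differences of 0.70 for mir-140 and 2.89 for mir-22. Leaving out 1 library at a time, log2 differences ran from 2.42 to 5.62 for miR-22-5p, 1.88 to 2.36 for miR-140-3p and 1.24 to 2.83 for miR-151-5p, and ratio differences from 3.44 to 6.66 for mir-22, 2.11 to 3.23 for mir-140 and 3.59 to 5.77 for mir-151. With no minimum per arm the ratio differences of mir-22 (4.65) and mir-151 (4.85) lost their calls. That fit covered more hairpins than the 24, and 15 were higher and 8 lower (38 and 27 at an unadjusted p below 0.05). These counts cannot be set against those of the 24. With at least 50 per arm, which left fewer hairpins, 4 were higher and 0 lower, also at an unadjusted p below 0.05. Leaving out 1 library gave 0 to 8 higher and 0 to 5 lower of the 24. With no filter, 88 of the 1058 miRNAs with a value above 0 were higher and 60 lower, and that fit includes the 108 rows where no read was found. Of the 181 tested miRNAs, 89 were higher and 8 lower with library totals. Relative to reads other than miR-122 these counts were 57 and 41, and with centring 65 and 40. Among the fewer miRNAs that reached a minimum of 50, 50 were higher and 23 lower. Relative to the median, 48 of the 181 were higher and 59 lower. Of the 37 tested in the 3p list 19 were higher and 1 lower with library totals, beside 89 and 8 of all 181. With centring 12 were higher and 8 lower, beside 65 and 40 of all 181. With upper-quartile scaling 14 were higher and 8 lower, beside 69 and 37 of all 181. Relative to reads other than miR-122, 10 of the list were higher and 9 lower, beside 57 and 41 of all 181. Relative to the median, 10 were higher and 12 lower, beside 48 and 59 of all 181. In the mir-28 family 1 of 4 was higher and 0 lower with library totals (2 and 0 unadjusted), beside 89 and 8 of all 181. With a pseudocount of 5, 1 was higher, beside 82 of all 181. When 1 library was left out, 0 to 2 were higher, beside 63 to 85 of all 181. The cause of these changes was not tested. A minimum of 50 left out miR-140-5p and miR-151-5p, and the 3 hairpins. Deviations of libraries with the same replicate number correlated at 0.21, 0.15 and 0.04, so the numbers were not taken to pair the libraries; with the replicate block miR-22-5p passed at 3.52 (adjusted p = 0.0364), 3 hairpin ratios were higher against 6 without it, and no other call on a member changed. Depth limits the 5p share of mir-140 in Control, which rests on 22, 16 and 42 reads.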
